A study of Rattus norvegicus with 20 samples.

Results

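Blood and blood vessels leave a small set of miRNAs in any RNA sample taken from an intact brain, and 6 of those miRNAs were followed here through the small RNA libraries of 20 rats. They were taken by their exact names, rno-miR-451-5p, rno-miR-144-3p, rno-miR-144-5p and rno-miR-486 for the blood and rno-miR-126a-3p and rno-miR-126a-5p for the endothelium, and all reads listed under a name were added up in each library. The libraries listed 617 miRNAs, of which 500 had at least 10 reads in at least 5 libraries and were tested, and all 6 were among the 500.

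The tissue was the adBNST, the anterodorsal division of the bed nucleus in the stria terminalis, a forebrain region of the extended amygdala, punched bilaterally from frozen brains of Sprague-Dawley rats. From weaning on postnatal day 21 the rats lived for 6 weeks either alone (socially isolated, SI) or with same-sex littermates, 3 to a cage (group housed, GH), which gave 4 groups of 5: males and females, each GH or SI. All the rats had been through the elevated plus maze at 9 weeks of age and were killed by decapitation on the same day, and the methods mention no perfusion of the brain. Females were chosen for sequencing partly by RNA quality and by their range of estradiol levels, and the punch holds neurons, glia, vessels and whatever blood they contained. As in any bulk sample, fewer cells of a type and less of the miRNA per cell cannot be told apart.

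In mammals miR-451 and miR-144 are made from a shared primary transcript in developing red cells, where the pair are among the most abundant small RNAs of the mature cell. miR-451 is unusual in that Argonaute2 rather than Dicer cuts its short hairpin, which leaves a variable 3′ end. miR-486 is an intronic miRNA of Ank1, abundant in red cells and also in muscle. miR-126a lies in Egfl7, is the standard miRNA of endothelial cells and acts on vascular growth-factor signalling through Spred1 and Pik3r2, and its 5p arm is also retained there.

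The mature sequences are shown because each read was assigned by them and because the seed, bases 2 to 8 from the 5′ end and set in capitals, decides which messages a miRNA pairs with. RefSeq held 5 of the 6 (build GRCr8), and in each case the reference read of the deposited files was the same sequence. For miR-486 the reference read itself is given, in DNA letters.
rno-miR-451-5p: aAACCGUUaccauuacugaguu
rno-miR-144-3p: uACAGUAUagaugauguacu
rno-miR-144-5p: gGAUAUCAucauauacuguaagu
rno-miR-486: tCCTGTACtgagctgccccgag
rno-miR-126a-3p: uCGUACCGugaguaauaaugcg
rno-miR-126a-5p: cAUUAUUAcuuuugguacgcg

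No 2 of the 6 shared a seed, and none of the 693 named mature rat miRNAs in the RefSeq table carried one of these seeds under another name. miR-144-5p (chr10:63459409-63459431, plus strand), miR-144-3p (chr10:63459446-63459465) and miR-451-5p (chr10:63459585-63459606) lay side by side, with 89 bases between the Mir144 and Mir451a hairpins. miR-126a-5p (chr3:29813182-29813202, plus strand) and miR-126a-3p (chr3:29813219-29813240) lay inside the gene Egfl7. Both also lay within the overlapping RefSeq genes Mir126a and Mir126b, and their mature sequences were taken under the symbol Mir126b.

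The libraries held between 3428930 and 11383055 miRNA reads. Their complexity moved with housing: GH libraries listed 454 to 530 miRNAs and SI libraries 367 to 479, and there were 12585 to 23573 distinct sequences in GH against 11399 to 19215 in SI, with median depths of 5207204 and 7129702 reads. The SI female I16F stood apart with the fewest miRNAs (367) and the fewest distinct sequences (11399) of the 20, and the SI male I17M had the next fewest miRNAs (406) and the highest GC content of its reads (45.1%). For the SI rats I17M and I17F the label and the name of the file give opposite sexes. Each was placed by its label, and the results were also computed without both and with both exchanged. Files list only sequences read at least 2 times, so a miRNA at 0 is listed at 0 and may still be present.

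The label of blood held unevenly. The red-cell pair was at the edge of detection while miR-486, named with them, was an abundant miRNA of this tissue. miR-451-5p had 0 to 181 reads in a library and 1026 in all 20, miR-144-5p 0 to 109 reads and 334 in all, and miR-144-3p 0 to 63 reads and 258 in all. miR-486 had 3914 to 22932 reads in every library, 936 to 3360 RPM (reads of a miRNA scaled to a common total of miRNA reads), and ranked between 40 and 106 by reads. In the 16 libraries that listed miR-451-5p, miR-486 had 39.6 to 620 times as many reads, with a median of 150. The 7 leukocyte and platelet miRNAs were as uneven. In normalized RPM (scaled further by the trimmed mean of M-values), miR-223-3p lay between 0 and 8.4 and was listed at 0 in 8 libraries, miR-142-3p was at 0 in 11 and miR-142-5p in 1. miR-155-5p, miR-146a-5p, miR-146b-5p and miR-150-5p were listed in all 20 libraries, and miR-150-5p had 410.42 to 1259 and miR-146b-5p 510.1 to 1241.

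For the red-cell pair no housing difference passed the test. miR-451-5p stood at 9.43, 0, 2.68, 9.58 and 2.64 RPM in the GH males and at 0, 2.92, 8.79, 0 and 25.6 RPM in the SI males, before normalization. The GH females had 8.41, 10.4, 18.7, 2.84 and 29.7 RPM and the SI females 13.4, 19.7, 3.33, 4.73 and 0. On this scale I20M, an SI rat, was the highest of the males and G17F, a GH rat, the highest of the females, both SI groups held libraries at 0, and the groups overlapped in both sexes. The log2 fold change of SI over GH was 0.72 ± 1.34 (SE) in males and -0.54 ± 1.33 in females, with edgeR quasi-likelihood adjusted p of 0.872 and 0.839.

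miR-144-3p was listed in 9 of the 20 libraries. It had 5 reads in 1 GH male and none listed in the other four, 43, 44 and 27 reads in 3 SI males, 63, 28, 11 and 11 in 4 GH females and 26 in 1 SI female. Its fitted log2 difference thus ran up in males (4.20 ± 2.03) and down in females (-2.14 ± 1.83), with edgeR adjusted p of 0.217 and 0.562, and the interaction of housing with sex had an edgeR adjusted p of 0.56, with 0.4% of the 500 miRNAs called for it. In 8 of the 9 libraries every read was a single sequence, and reads amplified over 22 PCR cycles without molecular identifiers are not independent molecules.

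miR-144-5p, from the other arm of the hairpin, reached 41 reads in a GH male, 42 in an SI male, 18 in a GH female and 109 in an SI female, and every group held a library at 0. Of the 9 libraries with miR-144-3p, I17M, I17F and G15F listed none of it. Its log2 fold change was 0.76 ± 1.69 in males and 1.86 ± 1.74 in females, with edgeR adjusted p of 0.890 and 0.600. Over both sexes the log2 differences were 0.094 ± 0.94 for miR-451-5p, 1.03 ± 1.25 for miR-144-3p and 1.31 ± 1.21 for miR-144-5p (edgeR adjusted p of 0.966, 0.641 and 0.506), and the interaction was -1.26 ± 1.89 for miR-451-5p and 1.10 ± 2.39 for miR-144-5p (edgeR adjusted p of 0.947 and 0.954). These standard errors leave room for large differences in either direction.

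**Figure D1:**
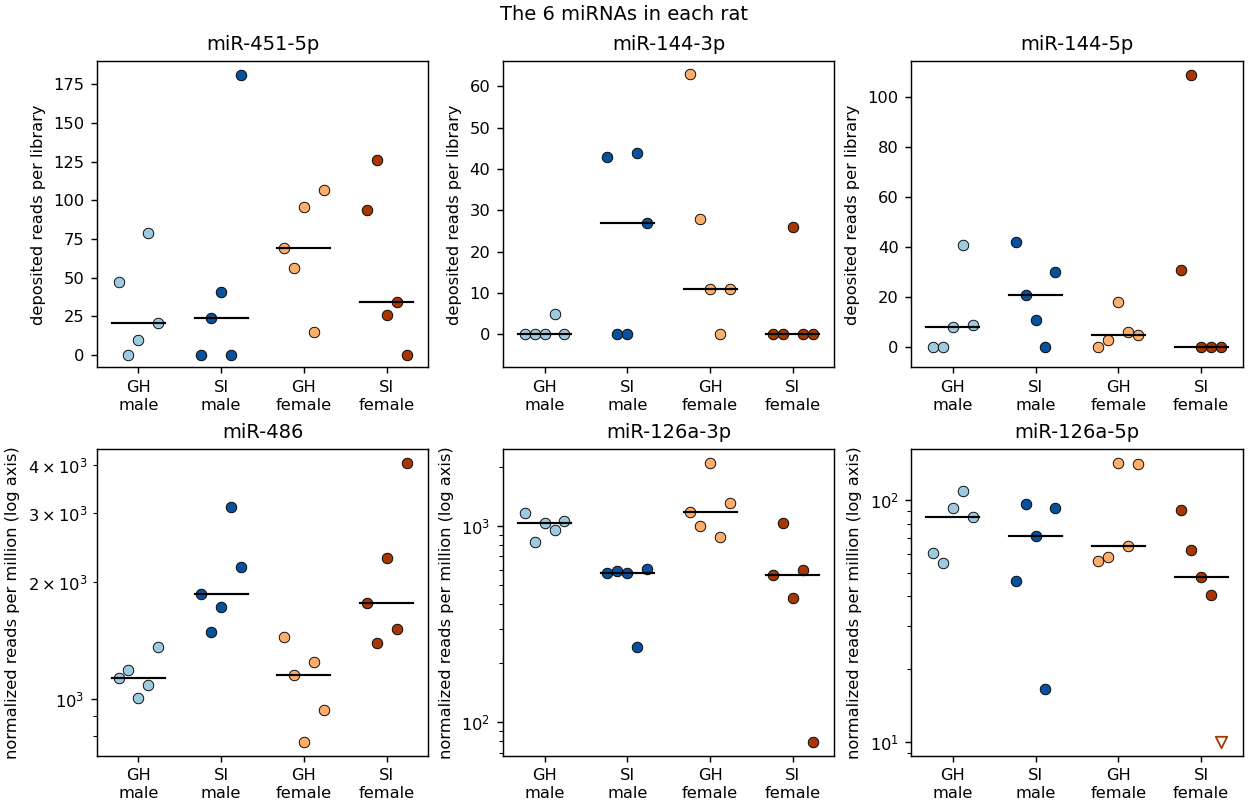
The 6 miRNAs in the 20 rats, 5 per group, with a line at each group median. The upper panels give deposited reads per library for miR-451-5p, miR-144-3p and miR-144-5p, none above 181 reads; the lower panels give normalized RPM on log axes for miR-486, miR-126a-3p and miR-126a-5p, where the open triangle marks the SI female I16F, listed at 0.

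miR-486 was higher and miR-126a-3p lower in SI than in GH rats over both sexes, and each had the same direction in males and in females. miR-486 was 1.89-fold higher (log2 0.92 ± 0.19 SE, edgeR adjusted p = 0.0039, 10 SI and 10 GH rats) and miR-126a-3p 2.16-fold lower (log2 -1.11 ± 0.28, edgeR adjusted p = 0.0108). The contrast called 88 of 500 miRNAs, 17.6% (7.4% higher and 10.2% lower), and miR-486 and miR-126a-3p were the only ones called of the 6.

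Scaled by the trimmed mean of M-values, miR-486 stood at 1126.6, 1186.6, 1002.3, 1086.3 and 1355.3 in the GH males and at 1863.8, 1486.7, 1718.6, 3111.4 and 2183.5 in the SI males, in normalized RPM. Every SI male was above every GH male, with I17M the highest. Group means were 1151 ± 132 (SD, n = 5) and 2073 ± 633. In females the GH rats had 1440.2, 1152.4, 775.1, 1240.6 and 934.0 and the SI rats 1757.9, 1386.4, 2303.7, 1510.3 and 4035.5. Of the SI females 4 were above every GH female, I10F fell just below G15F, and I16F was the highest of all 20. Means were 1108 ± 260 in GH and 2199 ± 1086 (SD, n = 5) in SI females.

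Taken within a sex, the rise of miR-486 did not pass the threshold in the main fit. The log2 difference was 0.85 ± 0.27 in males (edgeR adjusted p = 0.0707) and 0.99 ± 0.27 in females (edgeR adjusted p = 0.0838). Of the 500 miRNAs 4% were called in males and 0.4% in females, and 13.8% had groups that did not overlap in males, 4.6% of all being higher in SI. With DESeq2 the adjusted p was 0.0302 in males and 0.0166 in females. With the I17 libraries exchanged between the sexes, the difference passed in females (1.09 ± 0.26, edgeR adjusted p = 0.0327) but not in males. Of 20 fits that left out 1 rat each, 1 passed in each sex. These were the fit without I16F in males (edgeR adjusted p = 0.0138) and without I10F in females (edgeR adjusted p = 0.0192). The highest edgeR adjusted p was 0.17 in males and 0.242 in females. I16F is a female and enters the contrast in males only through the spread and scaling that all libraries share. The interaction of housing with sex was 0.14 ± 0.37 (edgeR adjusted p = 0.955), an estimate with room for a difference in either direction.

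miR-126a-3p, the main product of the endothelial locus, stood at 1170.5, 825.4, 1035.8, 959.4 and 1059.9 normalized RPM in the GH males. In the SI males it stood at 574.6, 589.1, 577.8, 242.0 and 605.4, so that 4 of the 5 lay within a narrow band and I17M lay far under it. Every SI male was below every GH male, as for 9.2% of the 500 miRNAs. GH females had 1177.1, 997.3, 2091.6, 882.1 and 1305.2 and SI females 565.9, 1034.4, 430.2, 599.8 and 79.9. I10F was the only SI female within the range of the GH females, and I16F, with 416 reads made up of 3 distinct sequences, was the lowest of all. Group means were 1010 ± 128 in GH males, 518 ± 155 in SI males, 1291 ± 476 in GH females and 542 ± 344 in SI females (SD, n = 5 each).

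The log2 difference of miR-126a-3p was -0.96 ± 0.40 in males (edgeR adjusted p = 0.134) and -1.25 ± 0.40 in females (edgeR adjusted p = 0.0876). With DESeq2 it passed in females (-1.27, adjusted p = 0.0201) but not in males. It passed in 1 of the 20 leave-one-out fits in each sex. These were again the fit without I16F in males (edgeR adjusted p = 0.018) and without I10F in females (edgeR adjusted p = 0.0258). The highest edgeR adjusted p was 0.273 in males and 0.251 in females. The interaction was -0.29 ± 0.56 (edgeR adjusted p = 0.954). An unadjusted p under 0.05, which miR-486 and miR-126a-3p had in both sexes, was found for 23% of the 500 miRNAs in males and 20.8% in females.

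**Figure D2:**
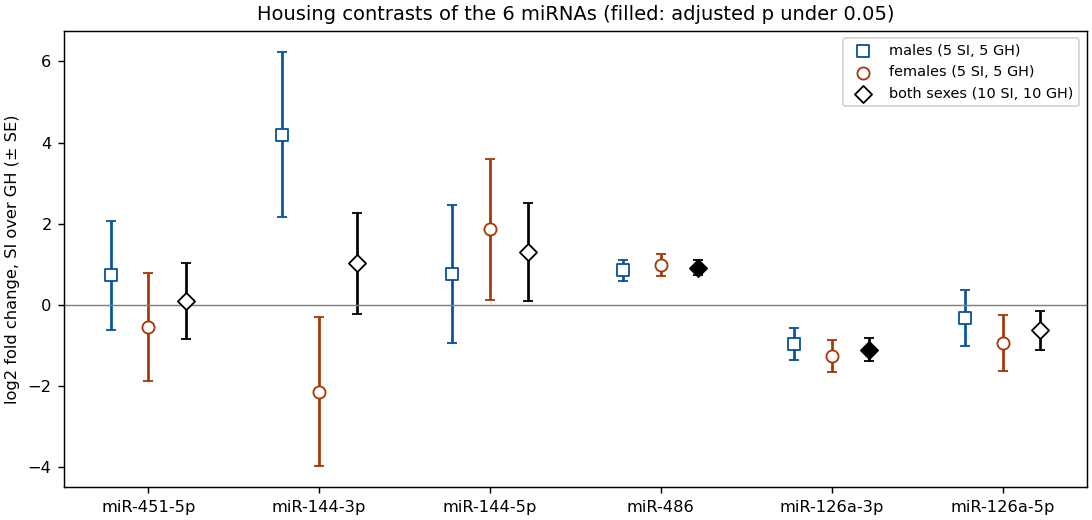
Log2 fold change of SI over GH with its standard error for the 6 miRNAs, in males (squares), females (circles) and both sexes (diamonds), filled where the edgeR adjusted p is under 0.05. miR-486 (0.92) and miR-126a-3p (-1.11) over both sexes are the filled points, and the red-cell pair has the widest errors.

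Both differences were smaller without the libraries that stood apart. Without I16F and both I17 libraries the difference over both sexes was 0.56 ± 0.14 for miR-486 (edgeR adjusted p = 0.0123) and -0.81 ± 0.18 for miR-126a-3p (edgeR adjusted p = 0.0046). With both I17 libraries alone left out it was 0.80 and -0.99 (edgeR adjusted p of 0.017 and 0.0394).

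The passenger arm, miR-126a-5p, was about an order of magnitude less abundant and more scattered. It stood at 60.5, 55.0, 93.0, 109.5 and 85.2 normalized RPM in the GH males and 46.3, 96.1, 71.1, 16.6 and 92.6 in the SI males. GH females had 56.0, 58.2, 142.3, 64.5 and 140.5, and SI females 91.0, 61.9, 48.2, 40.4 and 0. The groups overlapped in both sexes. The log2 difference was -0.32 ± 0.68 in males, -0.93 ± 0.69 in females and -0.63 ± 0.48 over both (edgeR adjusted p of 0.890, 0.488 and 0.398), with an interaction of -0.61 ± 0.96 (edgeR adjusted p = 0.947). The 3p arm had 12.4 times the reads of the 5p arm in the median library, between 8.76 and 19.3 times in GH and 6.13 and 14.6 times in SI males, and between 9.29 and 21.0 times in GH females and 6.22 and 16.7 times in the 4 SI females that listed both.

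Between the sexes, no member was called among GH rats, where edgeR called 0 of 500 miRNAs (0%) with 12 at an unadjusted p under 0.05 (2.4%) and DESeq2 called 5. miR-486 differed by -0.05 ± 0.26 and miR-126a-3p by 0.35 ± 0.39 on the log2 scale, GH females over GH males, and miR-126a-5p by 0.19 ± 0.68. The red-cell pair had larger differences with larger errors, 1.32 ± 1.36 for miR-451-5p, 4.44 ± 2.06 for miR-144-3p and -0.51 ± 1.70 for miR-144-5p. The edgeR adjusted p was 0.996 for all 6, and miR-144-3p, listed in 4 GH females and 1 GH male, was among the 12 at an unadjusted p under 0.05. Ordered by mean, miR-486 ran from GH females through GH males and SI males to SI females, and miR-126a-3p ran from SI males through SI females and GH males to GH females. In both orders the first pair and the last pair overlapped. In the middle, SI males lay wholly above GH males for miR-486, while SI females and GH males overlapped for miR-126a-3p through I10F.

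From rat to rat, within groups, neither of the relations tested among the red-cell miRNAs passed the test, while the arms of miR-126a rose and fell together. Relations were computed on deviations of log2 normalized counts from the group means over 20 rats, with 100000 permutations within groups and adjustment over the 5 pairs. miR-451-5p and miR-144-3p, products of neighbouring hairpins, showed no relation past the threshold (Pearson r = -0.0753, Spearman rho = -0.153, permutation p of 0.81 and 0.555, both unchanged by adjustment). The arms of miR-144 gave r = -0.246 and rho = -0.209 (permutation p of 0.359 and 0.401, adjusted 0.449 and 0.501). miR-451-5p and miR-486 ran in opposite directions, with r = -0.588 and rho = -0.596 (permutation p of 0.019 and 0.0103, adjusted 0.0317 and 0.0172), and r = -0.455 without the 2 rats farthest out, I16F and G19M.

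The arms of miR-126a gave r = 0.911 and rho = 0.814 (permutation p of 0.00284 and 0.00121, adjusted 0.0071 and 0.00302). Without I16F and I10F, the farthest out, r was 0.748. miR-451-5p also followed miR-126a-3p, with r = 0.692 and rho = 0.685 (permutation p of 0.00012 and 0.00024, adjusted 0.0006 and 0.0012) and r = 0.577 without I16F and G19M. The libraries that listed miR-451-5p at 0 were G19M, I15M and those with the fewest miRNAs, I16F (367) and I17M (406). The part of library complexity in the relations of miR-451-5p to miR-486 and miR-126a-3p was not tested. Over the 20 rats without centring, the arms of miR-126a gave r = 0.853 and rho = 0.556 (permutation p of 8e-05 and 0.0128, adjusted 0.0004 and 0.0642). The remaining 4 pairs gave uncentred r of 0.039, -0.122, -0.511 and 0.611 in the order above (permutation adjusted p of 0.873, 0.753, 0.0342 and 0.011) and rho of 0.169, -0.0807, -0.344 and 0.454 (adjusted 0.591, 0.733, 0.23 and 0.112). Leaving out both I17 libraries gave r of 0.0438, -0.00957, -0.525, 0.925 and 0.652 for the 5 pairs within groups, the 0.925 being that of the miR-126a arms.

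The opposite course of miR-486 and miR-126a-3p, a pair chosen after its values were seen, was seen within groups and over all rats. Within groups r was -0.882 and rho -0.795 (permutation p of 0.00026 and 0.00059, adjusted over 6 pairs 0.00078 and 0.00177), and r was -0.735 without I16F and I17M. Over all 20 rats without centring r was -0.932 and rho -0.863, both at the smallest permutation p that 100000 draws can give, 1e-05. miR-486 was higher and miR-126a-3p lower in SI than in GH rats, so the uncentred values in part restate the housing differences. They add no separate support for an opposite course. The adjustment over 6 pairs does not cover the choice of this pair, so its p-values are descriptive only. The ratio of miR-486 to miR-126a-3p reads was 0.962 to 1.44 in GH and 2.52 to 12.9 in SI males, and 0.371 to 1.41 in GH and 1.34 to 50.5 in SI females.

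**Figure D3:**
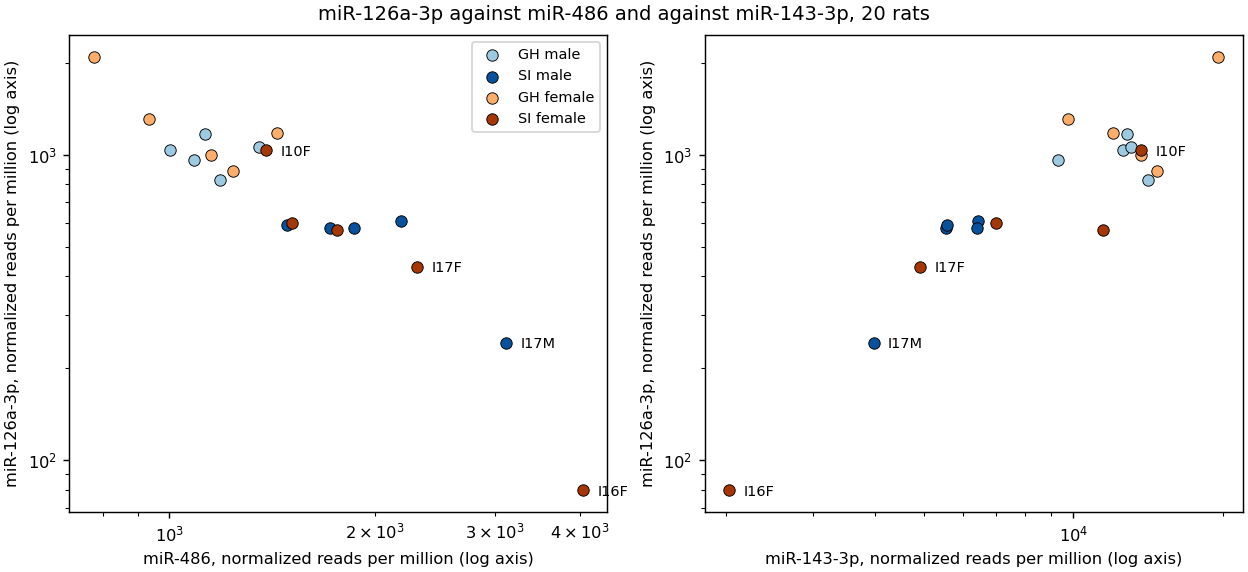
miR-126a-3p against miR-486 (left) and against miR-143-3p (right) in normalized RPM on log axes, one point per rat, coloured by group. miR-126a-3p falls as miR-486 rises, to 79.9 in I16F where miR-486 is 4035.5, and the SI female I10F lies among the GH rats in both panels.

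Library measures moved with the same 2 miRNAs. Within groups, miR-486 was higher where fewer miRNAs were listed (r = -0.819, rho = -0.726, permutation p of 0.00016 and 0.0015, adjusted over 4 relations 0.00064 and 0.0031) and miR-126a-3p was lower there (r = 0.754, rho = 0.662, permutation p of 0.00154 and 0.00245, adjusted 0.00175 and 0.00327). Without I16F and I17M the r were -0.66 and 0.518. With the GC content of the library's reads the r were 0.642 for miR-486 and -0.582 for miR-126a-3p, and the rho 0.535 and -0.627 (permutation p of 0.00175, 0.00163, 0.0116 and 0.00155, adjusted 0.00175, 0.00175, 0.0116 and 0.0031). Without I17M and G19M those r were 0.631 and -0.548. The 4 relations were added after the data were seen, for the 2 miRNAs already called. Their adjustment does not cover that choice, so their p-values are descriptive only. miR-486 itself is GC-rich (61.6%, 447 of 500 from the lowest), miR-126a-3p stood at 44.6% and miR-126a-5p at 36.5%. With each library's trend on GC content removed, the differences over both sexes were 0.72 and -1.01 (edgeR adjusted p of 0.0012 and 0.0046). The part of library complexity in these differences was not tested.

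**Figure D4:**
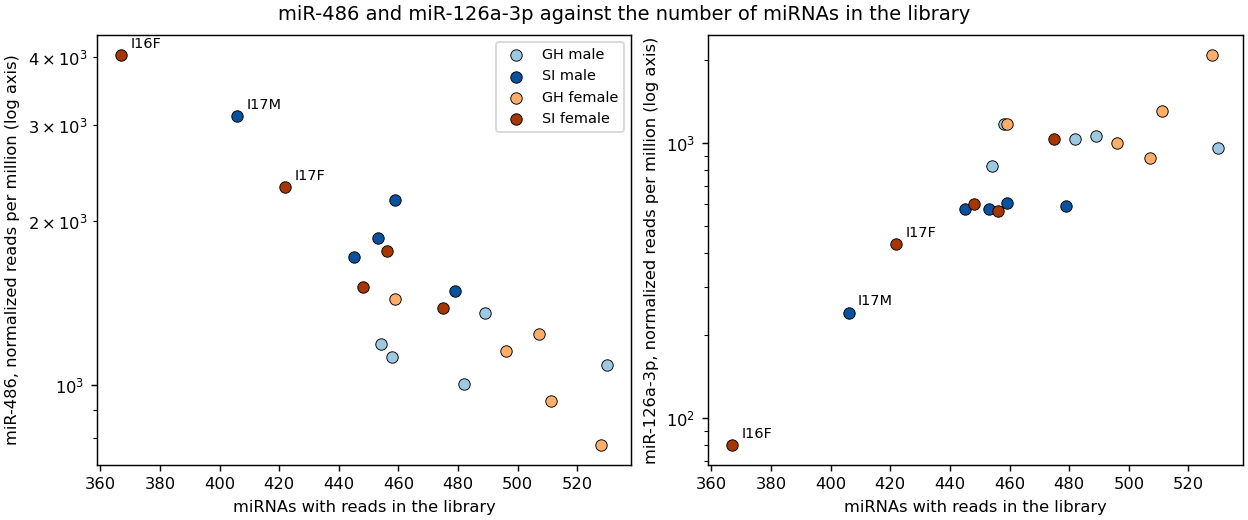
miR-486 (left) and miR-126a-3p (right) in normalized RPM on log axes against the number of miRNAs listed in the library, one point per rat. The libraries with the fewest miRNAs, I16F (367) and I17M (406), have the highest miR-486 and the lowest miR-126a-3p of the 20.

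Of the 494 other tested miRNAs, those nearest to each member in their course from rat to rat were named by the highest r of the deviations from group means over 20 rats. miR-126a-3p went with miR-99a-5p, miR-27a-3p and miR-30e-5p (r = 0.973, 0.972 and 0.937), and miR-126a-5p with miR-374-3p, miR-29c-3p and miR-29b-3p (0.967, 0.956 and 0.952). miR-486 went with miR-320-3p, miR-504 and miR-328a-3p (0.878, 0.869 and 0.861). miR-451-5p had miR-872-5p, miR-186-5p and miR-30e-5p (0.815, 0.78 and 0.765), with miR-30e-5p thus near both miR-451-5p and miR-126a-3p. miR-144-5p had miR-384-3p, miR-384-5p and miR-379-3p (0.817, 0.811 and 0.787), and miR-144-3p had miR-200c-3p, miR-152-3p and miR-3084a-5p (0.571, 0.527 and 0.51). The points share depth, complexity and base composition of the libraries. Each r is the highest among 494, and no value without the rats farthest out is given. I16F lay far under the mean log2 normalized count of the SI females. It was at 9.00 against 11.37 for miR-126a-3p and at 0 against 6.82 for miR-126a-5p, so this library can weigh heavily in these r.

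Other miRNAs of blood and vessels did not give a single direction. Of 8 tested miRNAs that red cells share with most tissues, 2 rose and 1 fell over both sexes, where 17.6% of all 500 were called, with a median log2 difference of -0.11 (all 500 miRNAs: -0.0046). miR-25-3p rose by 0.66 ± 0.13 and miR-92a-3p by 0.48 ± 0.14, while miR-16-5p fell by 0.85 ± 0.26 (edgeR adjusted p of 0.0039, 0.026 and 0.0304). In males miR-25-3p rose by 0.86 ± 0.19 (edgeR adjusted p = 0.0105). None of the 7 leukocyte and platelet miRNAs was called in either sex or over both (median -0.10 over both), and their summed level was 1563 to 1899 normalized RPM in GH and 1665 to 2002 in SI males, and 1730.0 to 2294 in GH and 1527 to 1954 in SI females.

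Among the 4 mural miRNAs, those of pericytes and vascular smooth muscle, 1 was called, miR-143-3p, beside 17.6% of all 500 over both sexes and 4% in males. It fell by 0.99 ± 0.23 over both sexes and by 1.15 ± 0.33 in males on the log2 scale (edgeR adjusted p of 0.0059 and 0.045). The list had a median of -0.50 over both sexes, and its summed level, nearly all of it miR-143-3p, was 9477 to 14377 normalized RPM in GH and 4090.0 to 6582 in SI males, and 9996 to 19861 in GH and 2117 to 13870.0 in SI females. I10F and I16F held the ends of the SI female range for the sum as for miR-126a-3p, and a relation between the list and miR-126a-3p was not tested. Of the 6 other vascular miRNAs, miR-221-3p rose (0.70 ± 0.18 over both sexes and 1.09 ± 0.25 in males, edgeR adjusted p of 0.0108 and 0.0134), and miR-24-3p and miR-27a-3p fell (-1.19 ± 0.24 and -0.72 ± 0.18, edgeR adjusted p of 0.0039 and 0.0113), with a median of -0.25.

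Markers of other cells in the punch were read against the same 17.6% of all 500 called over both sexes. Of 7 neuronal miRNAs, 1 was called, miR-129-5p (0.46 ± 0.15, edgeR adjusted p = 0.0399; list median -0.20). Of 4 oligodendrocyte miRNAs, the arms of miR-338 went apart, miR-338-5p rising (0.89 ± 0.17 over both sexes and 1.08 ± 0.23 in males, edgeR adjusted p of 0.0039 and 0.0105) and miR-338-3p falling (-1.74 ± 0.48, edgeR adjusted p = 0.0162; list median -0.72). None of the 6 tested of 10 choroid plexus and epithelial miRNAs was called (median 0.16), though their summed level reached 18491 normalized RPM in an SI male against 884 to 5347 in GH rats. The part of these cell types in the differences of miR-486 and miR-126a-3p was not tested.

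The reads of miR-486 ended in several ways at the 3′ side, and the forms are shown because the most common ones differ by a single added base that the deposited annotation calls not templated. The added base is in capitals.
miR-486, reference: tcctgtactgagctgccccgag
miR-486, T added: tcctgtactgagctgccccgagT
miR-486, A added: tcctgtactgagctgccccgagA
miR-486, last base absent: tcctgtactgagctgccccga

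Those 4 forms held 29.4%, 20.7%, 20.6% and 16.1% of all 212299 miR-486 reads, and each was present in all 20 libraries. Per library, the reference form held 29.7% ± 2.8 (SD, n = 20), forms ending in added A 24.6% ± 2.5 and forms ending in added U 21.6% ± 3.4. By group, given with no test, added A was 24.5% ± 1.4 in GH males and 23.8% ± 3.5 in SI males, and 24.6% ± 2.9 in GH females and 25.6% ± 2.5 in SI females.

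miR-126a-3p was mostly read as its reference. Its reference form held 58.3% ± 8.1 of reads per library (SD, n = 20), and forms with a changed 5′ end held 15.2% ± 3.1. The most common of the latter lacked the first base and held 7.2% of all reads, which moves the seed, in capitals, by 1 position.
miR-126a-3p, first base absent: cGTACCGTgagtaataatgcg

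In the SI males the reference form was 51.4% ± 6.6 against 60.7% ± 5.1 in GH males, and in SI females 60.5% ± 11.6 against 60.8% ± 5.3 in GH females. I16F gave the highest share, 79.8%, from its 3 sequences. The reads of miR-126a-5p were the reference form in 35.5% ± 17.8 (SD, n = 19), and I17M listed 122 reads that were all a single sequence, against 5 to 18 distinct sequences in the other 18 libraries that listed it.

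miR-451-5p was most often read 1 base short of its reference. Of its 1026 reads 45.5% lacked the last base, 25.5% were the reference, 13.6% were 1 base longer with the next templated base and 11.9% were 2 bases shorter, and no read carried an untemplated base. The ends are shown with the last base of each form in capitals.
miR-451-5p, 2 bases shorter: aaaccgttaccattactgaG
miR-451-5p, 1 base shorter: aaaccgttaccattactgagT
miR-451-5p, reference: aaaccgttaccattactgagtT
miR-451-5p, 1 base longer: aaaccgttaccattactgagttT

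**Figure D5:**
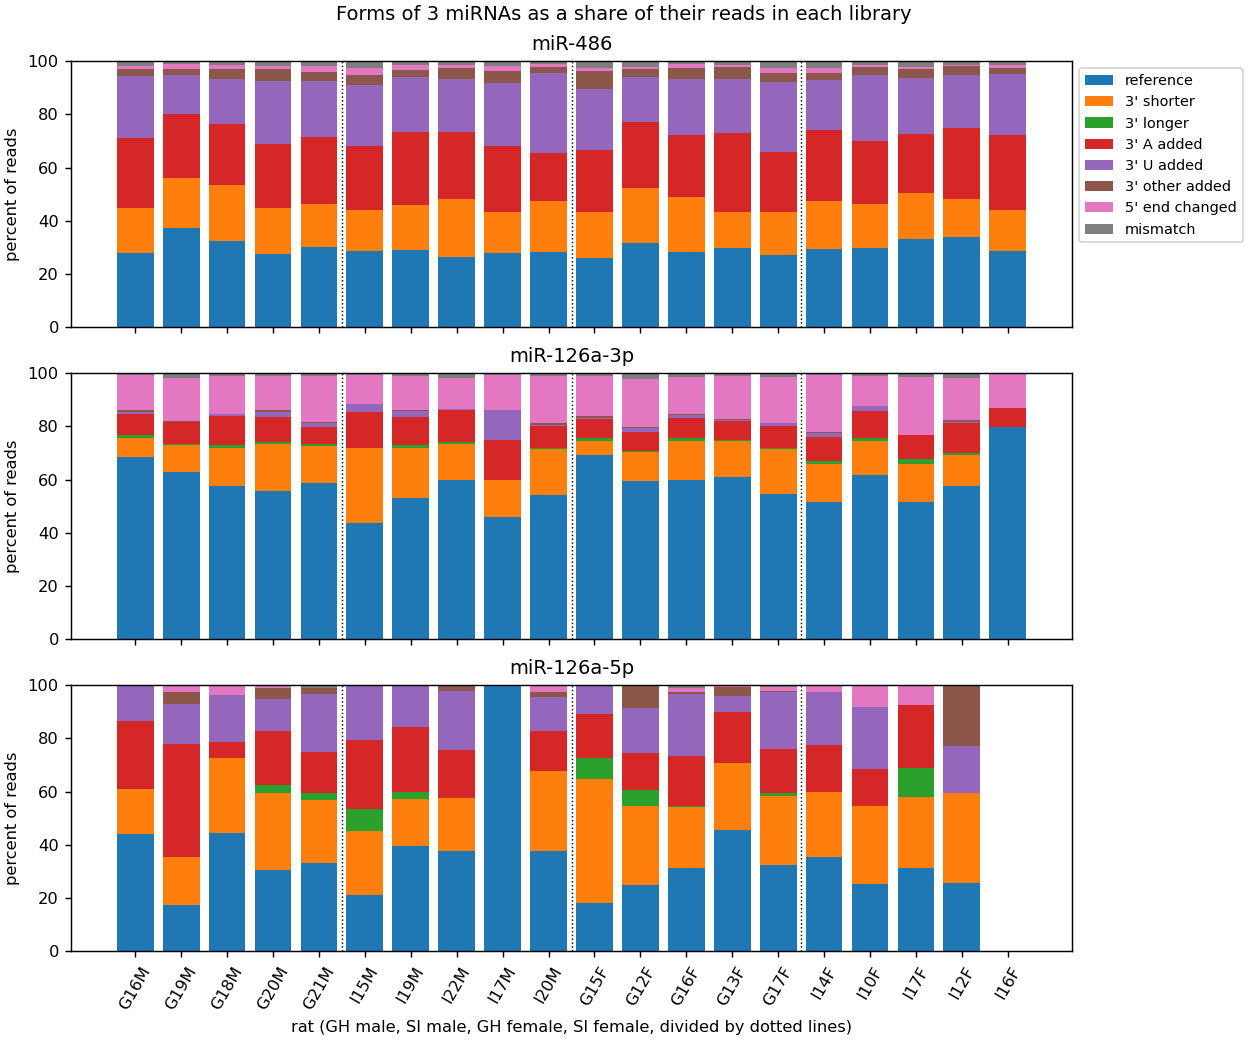
Forms of miR-486, miR-126a-3p and miR-126a-5p as a percentage of the reads of each in every library, stacked to 100, with the 20 rats in group order. In miR-486 the reference form holds 26.0% to 37.4% of a library's reads and forms with added U 14.8% to 30.1%, while miR-126a-5p in I17M is all reference and in I16F is listed at 0.

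Single forms were also tested among 10290 forms, each an exact end and addition of a miRNA. In the main fit edgeR called 1 form in males (0.00972%), which did not belong to the 6 miRNAs. It called 0 in females (0%, with 949 at an unadjusted p under 0.05 and 31 called by DESeq2). The 3 commonest forms of miR-486 had log2 differences of 0.54 ± 0.22, 0.66 ± 0.24 and 0.94 ± 0.29 in males for the reference, the form with A and the form with T. In females these were 0.82 ± 0.22, 0.83 ± 0.24 and 0.71 ± 0.29, and the edgeR adjusted p of the 6 values ran from 0.278 to 0.409. All were positive, as were 25 of the 32 tested forms of miR-486 in males and 22 of 32 in females. The median log2 difference of all 10290 forms was -0.049 in males and -0.116 in females. Forms of any 1 miRNA are counted in the same rats, so a shared sign repeats its difference and adds no separate support.

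The reference form of miR-126a-3p had -1.33 ± 0.47 in males and -1.51 ± 0.48 in females, the form short of its last base -0.70 ± 0.84 and -1.51 ± 0.86, and the form short of its first base -1.21 ± 0.74 and -1.43 ± 0.74 (edgeR adjusted p of 0.318 to 0.949). With no count filter edgeR called 239 of 67859 forms in males and 265 in females, the reference form of miR-126a-3p among them in both. There it had -1.26 ± 0.26 in males (edgeR adjusted p = 0.00195) and -1.48 ± 0.26 in females (edgeR adjusted p = 9.28e-05). Of the 22 forms of miR-126a-3p tested in the main fit, 3 were positive in males and 0 in females. The 3 commonest forms of miR-126a-5p lay between -0.29 and -1.25, with edgeR adjusted p of 0.793 to 0.989. Of its 7 tested forms, 2 were positive in males and 0 in females, and the lowest edgeR adjusted p was 0.318, in females. For the red-cell pair 5 of the 9 forms named passed the filter on low counts, 3 of them of miR-451-5p, and none was called.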

How the data were processed

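The 20 small RNA libraries, 5 for each of 4 groups set by the labels, were made from 215 ng of total RNA with 22 PCR cycles. The authors trimmed adapters, assigned reads to rat miRBase hairpins with seqbuster and also aligned them to the rn6 genome with STAR, and deposited for each library the read count of every sequence with its miRNA, mismatch, additions and end changes. Counts are raw and not collapsed by molecular identifier.

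Here counts were summed per miRNA. miRNAs with at least 10 counts in at least 5 libraries were fitted with edgeR 4.0.16 (R 4.3.3; TMM, group means, quasi-likelihood F test, Benjamini-Hochberg over 500 miRNAs, threshold 0.05), which was tested on simulated data; forms were fitted likewise. DESeq2 1.42.0, limma 3.58.1 (voom), other filters and scalings, exchanged or omitted I17 libraries and leave-one-out fits were alternatives. The GC correction, the fits without I16F and both I17 libraries, leave-one-out fits of forms, the pair miR-486 with miR-126a-3p and the relations to library measures were added after seeing the data. Lists covered other red-cell, leukocyte and platelet, mural, other vascular, neuronal, oligodendrocyte, and choroid plexus and epithelial miRNAs. The 6 miRNAs and the lists were chosen with earlier results of these data known. Values of all 6 are given in every contrast, with the 3 commonest forms and the 3 miRNAs of most similar course for each, and, of the lists, up to 2 called in each direction by lowest p. The labels give no batch, litter or cage, and no libraries were copies of each other. Some GH rats may have been cage mates or littermates, and the fits treat all rats as independent. Log2 normalized counts used the mean library size and a pseudocount of 1.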

Additional observations from a re-analysis of the deposited data

Results flagged for a closer look

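In 24 sets of 5 rats, 6 miRNAs in 4 groups, a single rat stood apart from the rest of its group in 5. A chance rate of about 1 in 20 need not hold here. The sets share libraries, and the red-cell pair has many values at 0. The number flagged is therefore not read as an excess over chance. On the scale of log2 normalized counts, miR-126a-3p in the SI male I17M was at 10.60 with the next lowest at 11.84, and miR-126a-5p in the SI female I16F was listed at 0 with the next lowest at 8.02. The others were zero-or-not patterns of the red-cell pair: miR-144-3p was at 2.27 in the GH male G20M and at 4.63 in the SI female I17F where the rest of each group was at 0, and miR-144-5p was listed at 0 in I17M with the next lowest SI male at 4.06.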

How the results depend on the processing

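Limits: 3 of the 6 miRNAs rest on under 200 reads in any library, depth and complexity differed with housing, and p-values measure only the spread between these rats. On simulated counts for 500 miRNAs with 200 changed in males, 29% of changes of 1 and 70% of changes of 2 on the log2 scale were recovered.

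The rise of miR-486 and the fall of miR-126a-3p over both sexes kept their direction under every alternative and stayed past the threshold in all but the fits limited to the rats whose numbers occur in both housing groups. There miR-486 gave 1.09 (adjusted p = 0.0534) without a block and 1.04 (0.203) with the replicate number as a block, and miR-126a-3p gave -1.24 (0.132) and -1.37 (0.258) with the block. The fits use fewer rats. Same-numbered rats did not deviate together (r from -0.304 to 0.0896 in 5 pairs). The labels do not say what the numbers stand for, and 5 pairs cannot settle whether they pair the rats. With the block, 0 miRNAs were called in males, in females, over both sexes and for the interaction, and 0 forms in males. Without it the same rats gave 0 in males, 55 in females, 20 over both sexes, 0 for the interaction, and 0 forms in males and 11 in females. Leaving out single rats kept miR-486 over both sexes between 0.75 and 0.97 and miR-126a-3p between -1.29 and -0.97, all past the threshold.

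The number of miRNAs called moved more. In males, beside 20 called, edgeR called 40 with at least 10 counts in every library, 84 with only the groups compared, 43 with the GC correction, 73 without I16F and both I17 libraries, 13 without both I17 libraries and 11 with them exchanged, DESeq2 60, limma voom 87 and leave-one-out fits 7 to 73, the highest without I16F. In females, beside 2, these were 40, 0, 23, 1, 0 and 5, DESeq2 67 and leave-one-out 1 to 63, the highest without I10F. For the interaction, beside 2, the count was 0 with DESeq2 size factors, with the GC correction and with the I17 libraries exchanged, 1 without both and without I16F as well, 6 with DESeq2's test, and 0 to 2 in leave-one-out fits. Over both sexes, beside 88, it was 50 without both I17 libraries and 58 to 117 leave-one-out. DESeq2 called 5 between GH females and males. Of forms in males, beside 1, the counts were 34, 69, 2 without both I17 libraries, 0 with them exchanged, 41 by DESeq2, 239 with no count filter and 1 to 46 leave-one-out. Of forms in females, beside 0, they were 1 with 10 counts in every library, 2 without both I17 libraries, 5 with only the groups compared, 31 by DESeq2, 265 with no filter and 0 to 3 leave-one-out. The cause was not tested.

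None of the differences whose sign changed had an adjusted p under the threshold, before or after the change. miR-451-5p in males turned to -0.66 with voom (leave-one-out -0.72 to 1.13), in females to 0.065 without I16F and both I17 libraries, over both sexes to -0.41 with voom, -0.32 in the rats with shared numbers and -0.0060 with the replicate block (leave-one-out -0.62 to 0.30), and its interaction to 0.50 with voom (leave-one-out -1.83 to 0.20). miR-144-3p over both sexes turned to -1.85 without both I17 libraries, -1.86 without I16F as well, -0.72 with the block and -1.06 with voom (leave-one-out -1.64 to 2.52). For miR-144-5p the interaction was -0.61 with voom (leave-one-out -0.75 to 1.81), the difference in females -0.020 (without I10F) to 2.56 leave-one-out and that between GH females and males -1.21 to 0.52. miR-126a-5p in males was 0.23 in the rats with shared numbers and 0.31 with the block, and between GH females and males -0.11 with voom (leave-one-out -0.016 to 0.33). The interaction of miR-486 was -0.16 without I16F and both I17 libraries, -0.020 with voom and -0.072 with the GC correction (leave-one-out -0.12 to 0.37), its difference between GH females and males -0.17 to 0.050 leave-one-out, and the interaction of miR-126a-3p -0.59 to 0.048. Among single forms, the miR-126a-5p reference in males was 0.62 in the rats with shared numbers and 0.89 with the block, and its form with T 0.023 with the block. Leave-one-out gave -0.47 to 1.49 for miR-451-5p short of its last base in males, -5.19 to 7.10 for its reference in males and -5.53 (without I10F) to 2.86 for the miR-144-5p reference in females.

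Within a sex, miR-486 passed in 6 of 14 alternatives in males and 5 of 14 in females, and miR-126a-3p in 3 and 2 of 14. For miR-126a-3p in males these were the fit of only the groups compared (edgeR adjusted p = 0.0083), voom (adjusted p = 0.0146) and the fit without I16F and both I17 libraries (edgeR adjusted p = 0.0316). In females they were DESeq2 and the filter of at least 10 counts in every library (edgeR adjusted p = 0.0442). The median of all tested miRNAs in females lay at -0.13 in the main fit and at -0.017 with the GC correction, and over both sexes at -0.17 with voom. Shares of forms and the ratio of the miR-126a arms moved by less than the spread between rats without mismatched reads and without both I17 libraries.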
